A study of Homo sapiens with 8 samples.

Results

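The first sampled time of a response to interferon-β (IFN-β) is described here, 4 h of treatment against untreated cells, with attention to genes that moved the same way in both cell lines of the study. U6A is a human fibrosarcoma line without STAT2 of its own. One of the lines made from it carried wild-type STAT2 and the other the T387A form, in which an alanine replaces a threonine. The comparison took 4 of the 8 arrays, selected by their titles: wild type at 0 h, wild type at 4 h, T387A at 0 h and T387A at 4 h. Treated cells received IFN-β at 100 IU/ml and untreated cells received none. The other 4 arrays, at 8 h and 24 h, entered the choice of probes and genes, the floor on intensity and the estimate of spread. They also gave a closing look at the later levels. How STAT2 was introduced, what promoter drove it and whether each line was 1 clone were not given in the sources used here, and the level of STAT2 itself was not analysed here.

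Type I interferons bind the receptor IFNAR1/IFNAR2, whose kinases JAK1 and TYK2 phosphorylate STAT2. STAT2 acts with IRF9 in the transcription factor ISGF3, which binds interferon-stimulated response elements (ISREs) in the promoters of interferon-stimulated genes. Many of those genes restrict virus entry, replication or translation, and others feed back on the pathway.

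Levels are probe intensities in arbitrary units, with 1 probe per gene, and the number of arrays limits their precision. A floor of 10.7 replaced lower values before log2 was taken, and 13656 genes above it on at least 1 of the 8 arrays were tested. Of these, 1079 were at the floor on all 4 arrays of the comparison. Changes were tested by limma with time and line as terms, which sets 2 arrays at 4 h against 2 at 0 h, at a Benjamini-Hochberg adjusted p under 0.05. Each line and time had a single array, so a p-value here reflects spread among these arrays alone, across times and lines. The residual SD of that fit was 0.319 on the log2 scale for the dimmest genes, with means under 50, and 0.105 for the brightest, with means over 1000. Fibroblast-like markers were above the floor for 8 of 8 genes, with sums from 32187 to 36693. Epithelial markers summed to between 18 and 28.3 on the 4 arrays (3 of 5 above the floor on any), leukocyte markers to between 16.6 and 31.1 (2 of 5) and endothelial markers to between 32.4 and 71.8 (1 of 3). CDH1, KRT19, PTPRC, CD3E, VWF and CDH5 were at or below the floor on all 8 arrays. No untreated array at 4 h was used, so IFN-β and time in culture cannot be told apart, nor can more responding cells and more RNA per cell.

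Antiviral genes led the genes that rose by 4 h. Limma placed 36 genes higher (0.264% of 13656) and 11 lower (0.0806%). The balance of higher and lower genes depends on the setting: it was 171 to 179 when the prior was trended and robust, 148 to 144 with the floor doubled, 268 to 351 with the floor at 100, and 169 to 168 at an adjusted p under 0.1. At an unadjusted p under 0.05 there were 1084 higher genes (7.94%) and 1301 lower ones (9.53%), the shares against which unadjusted counts in the gene lists are to be read. The rises ran from 1.0 to 6.38 on the log2 scale and the falls from 0.99 to 2.02. All 47 had the same sign in both lines, which the test favours, because it counts a gap between the lines as spread. Adjusted p-values lay between 0.0188 and 0.0497, close to the threshold. Without any single one of the 8 arrays (wild type at 0, 4, 8 or 24 h, or T387A at 0, 4, 8 or 24 h) limma called 0 genes in either direction. The smallest adjusted p was then 0.124 to 0.225, and 1863 to 2638 genes had an unadjusted p under 0.05. The 47 genes kept their sign in each of these 8 fits, which is no check. Leaving out an array at 8 h or 24 h cannot alter the estimate at 4 h. In the other fits the shared sign of both lines left little room for a turn.

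Without a test, 92 genes were at least 2-fold higher in both lines (0.674%) and 41 at least 2-fold lower (0.3%). They contain 35 of the 36 genes that rose by limma and 10 of the 11 that fell. In wild type alone 329 genes were at least 2-fold higher (2.41%) and 316 lower (2.31%), and in T387A alone 244 (1.79%) and 217 (1.59%). The overlap was therefore 28% of the wild-type list and 37.7% of the T387A list for higher genes, and 13% and 18.9% for lower genes. Most genes of these single-line lists had no array above 100. Among the 6170 genes with any of the 4 arrays above 100, 77 were at least 2-fold higher in wild type and 101 in T387A, and 63 were shared, 81.8% of the first and 62.4% of the second. For lower genes the bright lists held 23 and 33 genes with 15 shared, 65.2% and 45.5%. None of the 6170 genes moved 2-fold in opposite directions, and 97.5% of them stayed under 2-fold in both lines.

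**Figure D1:**
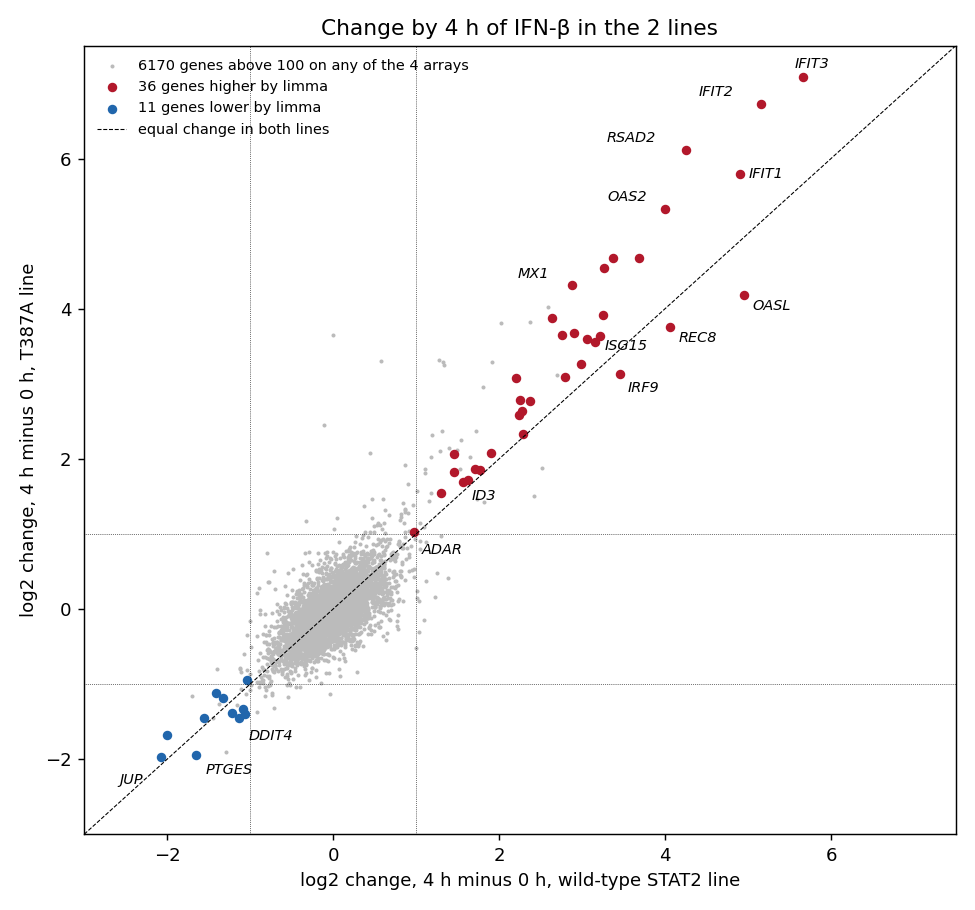
Log2 change from 0 h to 4 h in wild type (x axis) and in T387A (y axis), with 1 point per gene: 6170 genes above 100 on any of the 4 arrays in grey, 36 genes higher by limma in red and 11 lower by limma in blue. Dotted lines mark 2-fold, the dashed line marks an equal change, and 33 of the 36 red points lie above it.

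The plot of changes in both lines shows a dense cloud around 0 with a long arm of rises and a short arm of falls. Across the 6170 bright genes the changes in the lines had a Pearson r of 0.802, a description over genes, which are not independent and whose arrays were normalized together. Both lines reached 4-fold for 31 genes, 8-fold for 15, 16-fold for 6 and 32-fold for 2. The change was larger in T387A for 33 of the 36 risers, with medians of 2.83 in wild type and 3.41 in T387A on the log2 scale. It was larger in T387A for 69 of the 92 genes at least 2-fold higher in both lines and for 5 of the 11 fallers. These counts rest on a single array per line and time, so the genes are not replicates, and the count for the risers depends on the floor. The difference between the lines was not tested.

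The promoters of the risers were searched for the element that ISGF3 binds, and 15 of 29 held its core. RefSeq promoters (GRCh38.p14) reach from 250 bases before to 50 after the start site, and the bases before the start were searched on both strands for the ISRE core TTTCNNTTTC. The sequences below belong to the 8 genes with the largest rises that had such a match. They show up to 35 bases on each side of the match nearest the start, not the whole window. They are written 5′ to 3′ on the strand of the gene with each core match in capitals, so that a core read from the other strand appears as GAAA, 2 bases and GAAA.
IFIT3 (chr10:89327840-89327919, + strand): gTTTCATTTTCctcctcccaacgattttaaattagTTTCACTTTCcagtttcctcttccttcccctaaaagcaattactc
IFIT1 (chr10:89392485-89392564, + strand): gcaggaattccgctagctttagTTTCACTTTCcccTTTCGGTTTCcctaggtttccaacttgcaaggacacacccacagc
IFIH1 (chr2:162318685-162318740, - strand): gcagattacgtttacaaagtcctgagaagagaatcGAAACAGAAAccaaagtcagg
SAMD9 (chr7:93118071-93118150, - strand): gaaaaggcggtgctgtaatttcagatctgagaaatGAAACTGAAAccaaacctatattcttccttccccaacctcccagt
ISG15 (chr1:1013355-1013434, + strand): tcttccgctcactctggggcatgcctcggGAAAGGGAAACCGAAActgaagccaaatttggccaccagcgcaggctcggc
IFI44 (chr1:78649736-78649788, + strand): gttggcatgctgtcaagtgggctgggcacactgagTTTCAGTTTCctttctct
RTP4 (chr3:187368332-187368384, + strand): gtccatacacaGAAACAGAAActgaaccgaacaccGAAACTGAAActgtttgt
IFI6 (chr1:27672241-27672320, - strand): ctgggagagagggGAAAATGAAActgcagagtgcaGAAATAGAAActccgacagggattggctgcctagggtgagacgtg

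In ISG15 the capitals hold 2 overlapping matches, and IFIT3, IFIT1, RTP4 and IFI6 show 2 separate ones each. IFIH1 and IFI6 had 3 matches each in the window, of which those outside the printed bases are not shown. Of the 36 genes that rose 29 had a promoter in the table, and 15 of these (51.7%) held the core before the start, against 2.6% of the 10765 tested genes with a promoter and 3.1% of all 27305 promoters. The printed set was chosen for having a match. None of the 8 fallers with a promoter held it. Among genes at least 2-fold changed in both lines it stood in 21 of 63 higher (33.3%) and 0 of 29 lower. The GAS core TTCNNNGAA, a gamma-activated sequence, was counted in the same window and stood in 7 of the 29 (24.1%), in 1 of the 8 (12.5%) and in 5.8% of tested genes with a promoter. A match is only a run of letters, and REC8, RSAD2, RIGI, MX1, BATF2 and IRF9 were among the risers with no ISRE core in this window.

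The IFIT family, whose proteins bind viral RNA and block its translation, had the highest median of the 28 gene lists. Its 4 tested members all rose, with a median change of 5.65 on the log2 scale against 0.00 over all genes. In this and later sentences levels are given for wild type and then T387A. IFIT3 stood at 40.2 and 33.4 before treatment and had reached 2041 and 4557 by 4 h. Its rise was 6.38 ± 0.34 (SE of limma, 2 arrays at each time), or 83.2-fold, with limma adjusted p = 0.0188. The untreated levels of the lines were close to each other, and both treated arrays lay far above both untreated ones. IFIT2 went from 56.9 and 44.5 to 2025 and 4715, a rise of 5.94 ± 0.38 (limma adjusted p = 0.0225), or 35.6-fold in wild type and 106.0-fold in T387A. IFIT1 went from 167.4 and 149.0 to 5021 and 8262, a 40.8-fold rise. IFIT5 was the smallest of the 4, from 21.9 and 24.9 to 103.4 and 150.0, or 5.33-fold. Of the matches printed above, the one nearer the start ends 112 bases before it in IFIT3 and 93 in IFIT1.

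The OAS enzymes detect double-stranded RNA and make the oligoadenylates that switch on RNase L, and OASL is their catalytically silent relative. All 4 tested members rose, with a median of 3.89. OAS2 went from 71.3 and 62.3 to 1145 and 2512, a 25.4-fold rise (4.67 ± 0.31, limma adjusted p = 0.0225). OASL started lower in wild type (11.4) than in T387A (46.0) and reached 353.2 and 835.7. It was thus 1 of the 3 risers with the larger change in wild type, 4.95 against 4.18. OAS1, from 67.3 and 76.1 to 456.8 and 956.8, rose 9.24-fold, and OAS3, from 77.0 and 118.7 to 371.8 and 736.8, rose 5.47-fold.

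**Figure D2:**
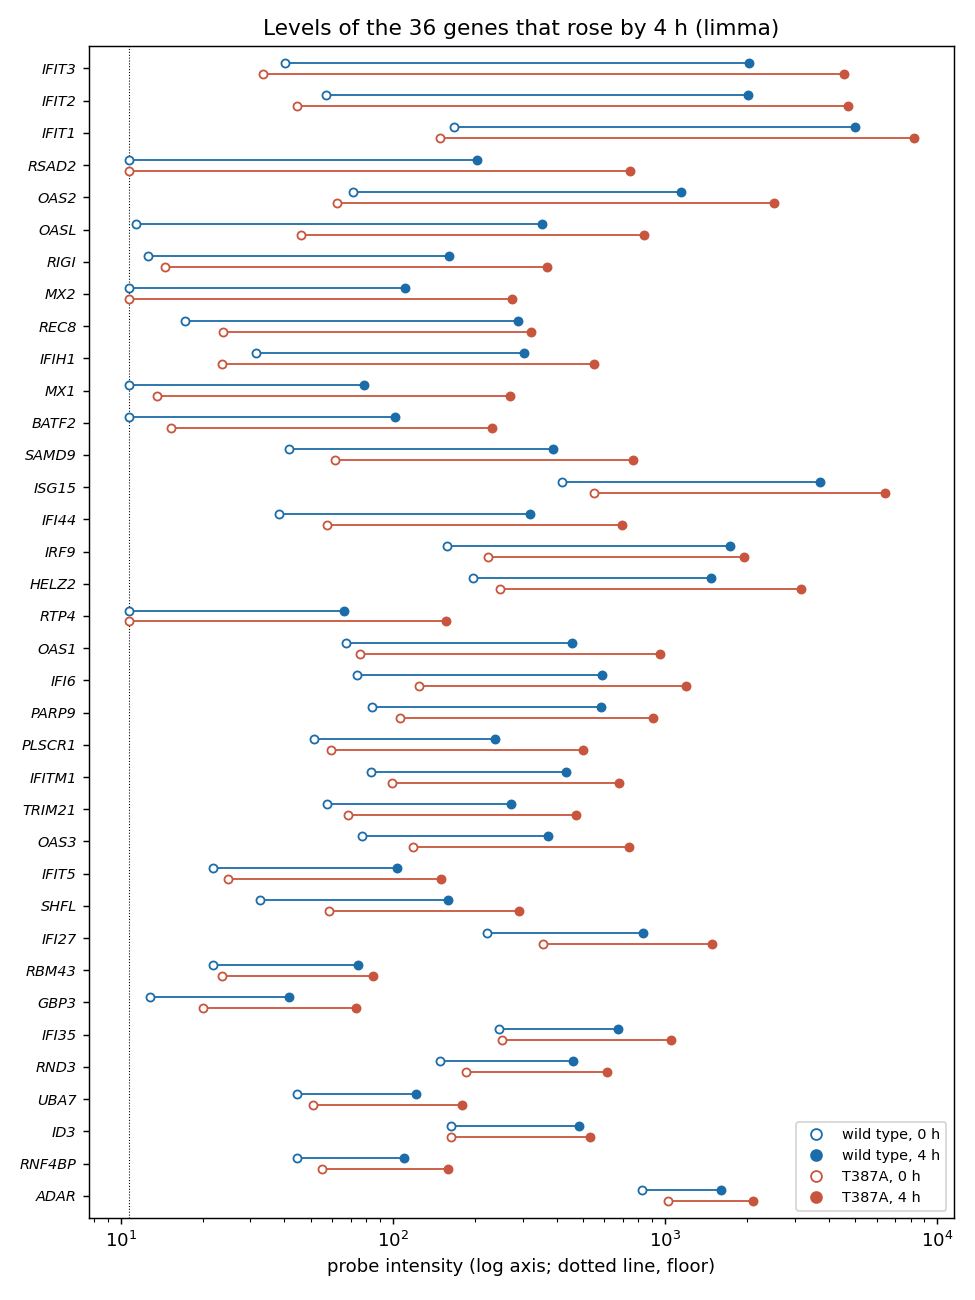
Probe intensity (log axis) of the 36 genes that rose by limma, in order of the rise, with open points for 0 h and filled points for 4 h, wild type in blue and T387A in red, and the floor of 10.7 as a dotted line. In every gene both filled points lie to the right of both open points, and for RSAD2, MX2 and RTP4 both open points sit on the floor.

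Among the MX, IFITM and IFI genes 7 of 10 rose, with a median of 2.28. MX1 and MX2 encode dynamin-like GTPases that trap viral nucleoproteins and capsids. MX2 was not above the floor on either untreated array and stood at 110.8 and 273.5 at 4 h, at least 16.3-fold higher (limma adjusted p = 0.0301). MX1 was at the floor on the untreated wild-type array and at 13.6 in T387A, and reached 78.4 and 269.7, at least 12.1-fold higher (limma adjusted p = 0.0492). In both genes the treated T387A array was the highest of the 4.

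IFI44 went from 38.3 and 57.5 to 318.7 and 693.8, a 10.02-fold rise, and the mitochondrial protein IFI6 from 74.1 and 125.0 to 587.5 and 1198, or 8.72-fold. IFITM1, a membrane protein that hinders virus entry, went from 83.2 and 99.5 to 431.9 and 677.5, or 5.95-fold. Its relatives had signal without interferon and did not pass: IFITM3 went from 1794 and 2053 to 3223 and 3603 (limma adjusted p = 0.0770), and IFITM2 from 2286 and 2683 to 2944 and 4576 (limma adjusted p = 0.166). IFITM1, IFITM2 and IFITM3 have similar sequences, and cross-hybridisation between their probes was not tested. IFI27 rose 3.97-fold, from 221.6 and 355.4 to 829.8 and 1495, and IFI35 3.39-fold. IFI44L was at the floor on all but 1 array, with 19.8 in treated T387A.

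Cytosolic RNA sensors moved with the effectors. Of 11 sensors and helicases 4 rose and 7 were at least 2-fold higher in both lines, with a median of 1.90. RIGI, which senses RNA with a free triphosphate end, went from 12.6 and 14.5 to 161.5 and 369.6, a rise of 4.18 ± 0.28, or 18.1-fold (limma adjusted p = 0.0225). IFIH1, the MDA5 sensor of long double-stranded RNA, went from 31.5 and 23.6 to 303.6 and 549.5, or 14.98-fold. HELZ2, a helicase and nuclear receptor coactivator, went from 197.1 and 248.7 to 1476 and 3165, or 9.76-fold. ADAR, the editor of double-stranded RNA, had the smallest rise of the 36, from 821.9 and 1031 to 1610.4 and 2103. In none of these 4 did a treated level fall within the untreated range.

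Several sensors did not pass. EIF2AK2, the kinase PKR, stood at 248.5 and 342.5 and then at 562.5 and 995.4 (limma adjusted p = 0.0832), and ZNFX1 at 96.9 and 81.7 and then at 319.4 and 423.1 (limma adjusted p = 0.0651). MAVS, the adaptor of both RIGI and IFIH1, was at 23.8 and 26.5 and then at 13.7 and 21.1, and was the 1 member of this list negative in both lines. DDX60 parted the lines, with 21.0 and 19.1 untreated and 19.4 and 104.1 at 4 h. Of 5 sensors of DNA none passed by limma, and 2 had an unadjusted p under 0.05. AIM2, an inflammasome sensor, was the largest of them, from 37.6 and 33.6 to 225.9 and 547.1, a log2 estimate of 3.31 ± 0.37 (limma adjusted p = 0.0640). CGAS and ZBP1 were at the floor on all 4 arrays, and STING1 stood between 179.4 and 211.7.

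ISG15 is a ubiquitin-like protein that is both attached to targets and secreted. It went from 417.8 and 548.1 to 3712 and 6423, a rise of 3.35 ± 0.18, or 10.2-fold (limma adjusted p = 0.0188). UBA7, the E1 enzyme that activates ISG15, went from 44.4 and 50.9 to 121.6 and 180.4, or 3.12-fold. These were the 2 of 7 conjugation genes that rose, while 4 were at least 2-fold higher in both lines and the median was 1.6. The E2 enzyme UBE2L6 stood at 944.3 and 1085 and then at 1722 and 2743 (limma adjusted p = 0.0694). The ligase HERC5 was at or below the floor untreated and at 11.8 and 14.2 at 4 h, next to the floor.

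Of 14 other antiviral effectors 4 rose and 7 were at least 2-fold higher in both lines, with a median of 1.28. RSAD2, or viperin, which makes a chain-terminating nucleotide, was below the floor without IFN-β and at 203.6 and 743.5 at 4 h. It was at least 36.4-fold higher (limma adjusted p = 0.0386). CMPK2, a mitochondrial nucleotide kinase, was also at the floor untreated and reached 28 and 65.5, without passing (limma adjusted p = 0.124). SAMD9, which blocks poxvirus replication, had the smallest p of the comparison and went from 41.7 and 61.5 to 388.4 and 765.1, a rise of 3.43 ± 0.14, or 10.8-fold. RTP4 was at the floor untreated and at 66.3 and 157.2 at 4 h, at least 9.54-fold higher, and the scramblase PLSCR1 rose 6.24-fold, from 51.5 and 59.5 to 237.8 and 501.7. BST2, or tetherin, stood at 580.5 and 594.6 and then at 767.0 and 950.1 (limma adjusted p = 0.124), and SAMHD1 was at the floor on all 4 arrays.

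All 6 tested genes of the PARP group were at least 2-fold higher in both lines, with a median of 2.02, and 1 of them rose by limma. That gene was PARP9, which acts with the ubiquitin ligase DTX3L. It went from 84.2 and 106.3 to 583.2 and 905.4, a 7.68-fold rise (limma adjusted p = 0.0188). DTX3L stood at 12.8 and 27.8 and then at 73.4 and 102.4, and ZC3HAV1, the zinc-finger antiviral protein, at 343.6 and 340.5 and then at 992.4 and 1236, each with limma adjusted p = 0.0640. Of 10 TRIM and PML-body genes 1 rose: TRIM21, a cytosolic antibody receptor, from 57.1 and 68.4 to 272.4 and 471.8, or 5.74-fold. TRIM22 had 11.2 and 17.9 untreated and 28 and 175.2 at 4 h, so that the treated wild-type array was nearer to the untreated ones than to treated T387A.

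Few genes of the signalling pathway itself passed. Of 6 receptor and transduction genes 1 rose, IRF9, the DNA-binding subunit of ISGF3. It went from 158.5 and 223.2 to 1736 and 1960.4, a rise of 3.29 ± 0.22, or 9.81-fold (limma adjusted p = 0.0225), and with 10.95-fold in wild type and 8.78-fold in T387A it was another of the 3 risers with the larger change in wild type. IFNAR1, IFNAR2, JAK1, TYK2 and STAT3 had log2 estimates between -0.27 and 0.50 and none passed. The treated and untreated levels of IFNAR1 lay close together, at 64.2 and 71.8 and then at 80.2 and 81.4.

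Among 7 IRF and BATF factors BATF2 rose, from below the floor in wild type and 15.3 in T387A to 102.2 and 231.2, at least 12-fold (limma adjusted p = 0.0252). IRF1, a factor that many cytokines induce, stood at 171.9 and 225.0 and then at 498.6 and 1068, a log2 estimate of 1.89 ± 0.21 that missed the threshold (limma adjusted p = 0.0640). IRF3, which acts upstream of interferon production, stood at 98.3 and 82.8 and then at 87.0 and 70.5.

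None of 7 feedback inhibitors passed by limma, and 1 had an unadjusted p under 0.05. USP18 removes ISG15 and holds back the receptor. It lay under the floor without IFN-β and stood at 27.1 and 102.0 at 4 h, at least 4.91-fold higher, with limma adjusted p = 0.116. SOCS1, an inhibitor of JAK kinases, stood at 35 and 40.0 and then at 37.3 and 76.1, with only treated T387A apart from the rest. SOCS3 had 22.6 and 26.7 untreated and 14.7 and 22.2 at 4 h.

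No gene of class I antigen presentation passed by 4 h. None of 17 did so by limma (8 higher and 1 lower at an unadjusted p under 0.05, against 7.94% and 9.53% of all genes), and the median was 0.25, with 0.07 in wild type and 0.49 in T387A. TAP1, the peptide transporter, was the exception in size: it stood at 224.2 and 284.7 and then at 588.1 and 1263, a log2 estimate of 1.77 ± 0.23 (limma adjusted p = 0.0681). It was the 1 gene of the 17 that was at least 2-fold higher in both lines. The immunoproteasome subunits PSMB8 and PSMB9 had estimates of 0.62 and 0.84, and B2M, the light chain, stood between 4602 and 5787 on all 4 arrays. The heavy chain genes HLA-B, HLA-C, HLA-E and HLA-F had estimates of 0.25, 0.50, 0.55 and -0.08, and they share much sequence, so a probe may read more than 1 of them.

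Other interferon-inducible families split. Among 5 guanylate-binding proteins, GTPases that attack pathogen vacuoles, GBP3 rose 3.45-fold, from 12.8 and 20.1 to 41.7 and 73.4 (limma adjusted p = 0.0313). GBP1 had 87.2 and 78.2 untreated and 327.7 and 764.3 at 4 h and did not pass (limma adjusted p = 0.0702). GBP4 and GBP5 were at the floor untreated and reached 34.3 and 23.6 in T387A. Of 4 APOL genes none passed by limma (2 at an unadjusted p under 0.05), with a median of 1.09, and APOL3 stood at 12.9 and 33.2 and then at 52.4 and 67.7. Of 6 APOBEC3 cytidine deaminases none passed, 0 had an unadjusted p under 0.05, and the median was 0.06. APOBEC3B stood at 218.2 and 274.7 and then at 267.2 and 262.1.

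None of 11 chemokines, cytokines and death ligands passed by limma, and 2 had an unadjusted p under 0.05. CXCL10, a chemokine for T cells, was at the floor untreated and at 25.9 and 106.5 at 4 h, at least 4.91-fold higher (limma adjusted p = 0.148). TNFSF10, which encodes the apoptosis ligand TRAIL, was at the floor on 3 of the 4 arrays and at 134.1 in treated T387A. TNFSF13B, a B-cell survival factor, stood at 65.5 and 73.5 and then at 89.4 and 310.0. In each of these 3 genes the treated T387A array stood alone as the highest.

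Targets of NF-kB and of growth-factor signalling did not follow the antiviral genes. Of 10 NF-kB targets none passed by limma (2 lower at an unadjusted p under 0.05), with a median of -0.16. IL1B, an inflammatory cytokine, was at least 2-fold lower in both lines, at 136.7 and 248.8 untreated and 52.9 and 103.9 at 4 h (limma adjusted p = 0.0959), while NFKBIA stood at 271.3 and 259.4 and then at 281.9 and 364.3. Of 12 immediate early genes none passed by limma (3 higher and 2 lower at an unadjusted p under 0.05). The zinc-finger factor KLF6 was at least 2-fold higher in both lines, with 327.3 and 404.8 untreated and 697.3 and 865.2 at 4 h (limma adjusted p = 0.0640). MYC stood at 741.3 and 782.2 and then at 530.4 and 584.5, and JUN lay between 1105 and 1247 on all 4 arrays.

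Of the 36 risers 31 belonged to the gene lists and 5 to none: REC8, SHFL, RBM43, RND3 and RNF4BP. REC8 is known as a subunit of meiotic cohesin. It went from 17.3 and 23.8 to 289.0 and 321.3, a rise of 3.91 ± 0.23, or 15.02-fold (limma adjusted p = 0.0199). REC8 was the third riser with the larger change in wild type, where its untreated level was near the floor. With the floor doubled its mean change was 3.755, equal to the T387A change of 3.755, so wild type was no longer ahead. SHFL, an inhibitor of viral frameshifting and translation, went from 32.6 and 58.3 to 159.8 and 292.2, or 4.96-fold. RND3, which opposes actin stress fibres, went from 149.6 and 186.1 to 460.4 and 614.6, a rise of 1.67 ± 0.09, or 3.19-fold (limma adjusted p = 0.0188).

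RBM43, which encodes an RNA-binding protein, rose 3.50-fold, with no array of the 4 above 84.5, and RNF4BP rose 2.68-fold, from 44.6 and 54.9 to 110.0 and 159.6. ID3, an inhibitor of basic helix-loop-helix factors and a classic target of BMP signalling, went from 164.0 and 163.9 to 484.9 and 531.0, or 3.10-fold (limma adjusted p = 0.0394). It was the 1 of 5 ID and SMAD genes that rose. ID1 stood at 507.8 and 553.9 and then at 928.4 and 1127, without passing (limma adjusted p = 0.109), and SMAD7 at 52.5 and 53.7 and then at 56.7 and 35.1. The changes in wild type and T387A were 1.62 and 1.72 for RND3 and 1.56 and 1.70 for ID3, closer to each other than 0.15, the median gap between the lines over genes with mean levels from 200 to 1000. The fit counts a gap between the lines as spread, so passing limma favours small gaps. Those of RND3 and ID3 are therefore not a finding about these genes.

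The 11 genes that fell shared little by name, and 2 of them belonged to a gene list. JUP encodes plakoglobin, which links cadherins to the cytoskeleton. It went from 276.4 and 229.0 to 65.8 and 58.2, a fall of 2.02 ± 0.16 on the log2 scale, and was 4.07-fold lower (limma adjusted p = 0.0313). PTGES, the terminal synthase of prostaglandin E2, went from 242.3 and 301.5 to 77.0 and 78.0 and was 3.49-fold lower. FBXO32, a ubiquitin ligase subunit known from muscle atrophy, went from 222.1 and 242.3 to 75.2 and 88.2 and was 2.85-fold lower. In each of these 3 genes both treated arrays lay below both untreated ones with no overlap.

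KIF21B, a kinesin, fell 2.41-fold, from 168.2 and 164.0 to 63.0 and 75.7, and CNIH3, an auxiliary protein of AMPA receptors, 2.39-fold, from 356.4 and 345.7 to 141.8 and 151.5 (limma adjusted p = 0.0247). The leucine-zipper gene TSC22D3, also called GILZ and known as a glucocorticoid target, went from 297.7 and 417.0 to 142.8 and 158.3 and was 2.34-fold lower. It was the 1 of 6 glucocorticoid-responsive genes that fell: FKBP5, another classic target, stood at 211.2 and 250.2 and then at 223.8 and 234.4, and KLF9 at 145.2 and 139.0 and then at 68.7 and 92.1 (limma adjusted p = 0.105). PRSS2, a trypsinogen, went from 4948 and 4917 to 2121 and 1878, or 2.47-fold lower. PRSS1 and PRSS3 are near-identical copies whose probes may read each other, and they stood at 449.4 and 569.8 and then at 207.6 and 271.3, and at 3512 and 3559 and then at 1291 and 1300.0.

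**Figure D3:**
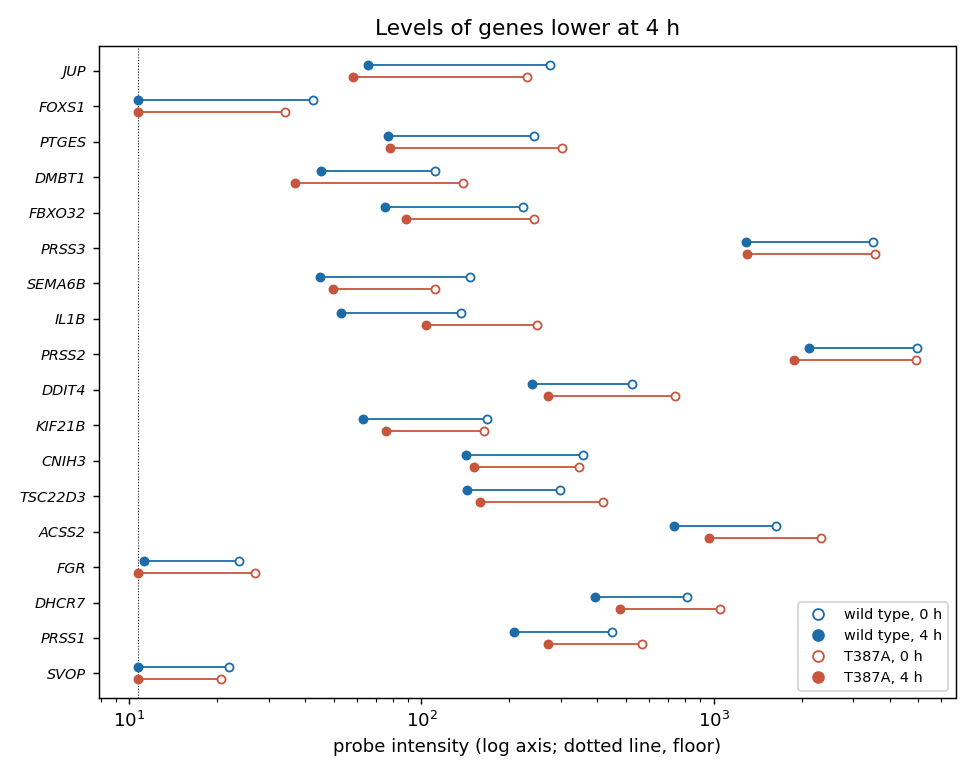
Probe intensity (log axis) of the 11 genes that fell by limma and of 7 others that were at least 2-fold lower in both lines with an array above 100 (DMBT1, PRSS3, SEMA6B, IL1B, ACSS2, DHCR7 and PRSS1), with open points for 0 h and filled points for 4 h, wild type in blue and T387A in red, and the floor as a dotted line. Filled points lie to the left of the open points of the same line in all 18 genes, and FOXS1, FGR and SVOP end on or next to the floor.

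The plot of lower genes also shows 3 dim fallers with no array above 100. FOXS1, a forkhead factor, went from 42.7 and 34.1 to below the floor on both treated arrays and was at least 3.57-fold lower (limma adjusted p = 0.0446). SVOP was at 22 and 20.6 and then below the floor in both lines, at least 1.99-fold lower, and FGR, a kinase of the SRC family, was at 23.8 and 27 and then at 11.2 and below the floor, at least 2.32-fold lower. With the floor doubled both calls ended: the log2 change of SVOP was -0.02 (limma adjusted p = 0.946) and the log2 change of FGR -0.24 (limma adjusted p = 0.202). Among bright genes that missed the threshold DMBT1, a scavenger receptor, stood at 111.1 and 138.2 and then at 45.4 and 36.9, and the semaphorin SEMA6B at 146.7 and 111.3 and then at 45.1 and 49.7.

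The integrated stress response is a programme of ATF4 that cells switch on when amino acids run short or proteins misfold. All 12 tested members of its list had negative changes in both lines, with a median of -0.67, against 28.1% of all genes (3841 of 13656) negative in both lines and a median of 0.00. Shares of all genes, here and elsewhere, count 1079 genes at the floor on all 4 arrays, which cannot be negative. No member of this list was among them, and shares among genes of like level were not computed. By limma 1 of the 12 fell, and 10 had a negative estimate at an unadjusted p under 0.05, against 9.53% of all genes. That 1 was DDIT4, which restrains mTORC1 and answers to glucocorticoids as well as to stress. It went from 524.4 and 740.3 to 238.6 and 271.0 and was 2.45-fold lower (limma adjusted p = 0.0495). CTH, an enzyme of cysteine synthesis, stood at 110.7 and 160.2 and then at 55.5 and 75.9 (limma adjusted p = 0.0694). The serine synthesis enzyme PSAT1 stood at 2251 and 2810.1 and then at 1409.9 and 1734 (limma adjusted p = 0.0702), and asparagine synthetase ASNS at 1378 and 2101 and then at 950.6 and 1476. ATF4 itself stood at 6009 and 7736 and then at 4907 and 6557, a log2 estimate of -0.27 ± 0.11. In ASNS, TRIB3 and PHGDH the untreated T387A array was the highest of the 4 and the treated T387A array stood above the untreated wild-type one.

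The genes of sterol synthesis, which SREBP2 switches on when cholesterol is low, had the same sign. All 11 tested members were negative in both lines, with a median of -0.58. None passed by limma, and 8 had a negative estimate at an unadjusted p under 0.05, against 9.53% of all genes. DHCR7, the last enzyme of cholesterol synthesis, stood at 811.3 and 1052 and then at 391.5 and 478.6, so that both treated arrays lay below both untreated ones (limma adjusted p = 0.0988). LSS, which closes the sterol rings, stood at 369.8 and 432.0 and then at 196.4 and 221.1 (limma adjusted p = 0.0670), and the mevalonate pathway enzyme MVD at 205.5 and 226.1 and then at 122.3 and 116.4. INSIG1, which retains SREBP in the endoplasmic reticulum, had the smallest mean change of the 11, with 1579.8 and 1929 untreated and 1386 and 1462 at 4 h. ACSS2, which makes acetyl-CoA from acetate and is in no list here, was at least 2-fold lower in both lines, with 1629.8 and 2331 untreated and 731.9 and 965.1 at 4 h (limma adjusted p = 0.0658).

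**Figure D4:**
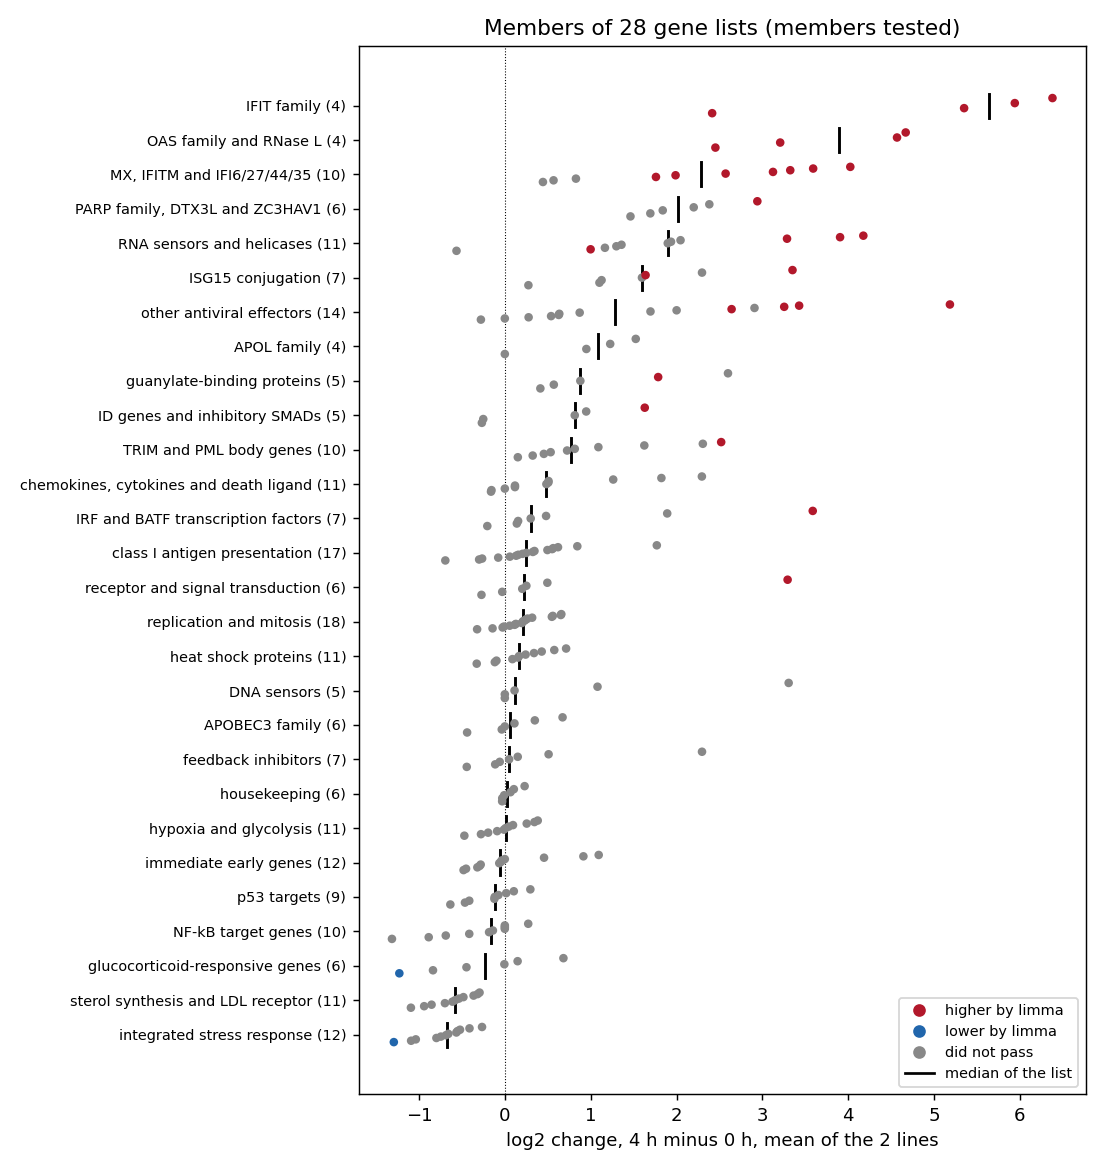
Log2 change from 0 h to 4 h, as the mean of the 2 lines, for each tested member of 28 gene lists, with the number of members tested in parentheses, genes past limma in red (higher) or blue (lower), other genes in grey and a black bar at the median. Medians run from 5.65 for the IFIT family to -0.67 for the integrated stress response, and housekeeping genes lie at 0.03.

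The plot of list members also shows housekeeping, replication, p53, hypoxia and heat shock lists, whose medians lay between -0.12 and 0.21. None of 6 housekeeping genes passed by limma, 0 had an unadjusted p under 0.05, and the estimates ran from -0.03 to 0.23. ACTB lay between 11186 and 12177 and GAPDH between 12610 and 14119. Of 18 replication and mitosis genes none passed by limma (6 higher at an unadjusted p under 0.05, against 7.94% of all genes), with a median of 0.21, and the mitotic kinase CDK1 had the second largest estimate, 0.65 ± 0.12, with 631.3 and 755.9 untreated and 1099 and 1072 at 4 h. Of 9 p53 targets none passed (2 lower at an unadjusted p under 0.05), with a median of -0.12, and CDKN1A stood at 2874 on both untreated arrays and at 2941 and 2373 at 4 h.

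Hypoxia and glycolysis genes had a median of 0.01 over 11 members, of which none passed by limma (1 higher and 2 lower at an unadjusted p under 0.05). NDRG1, a hypoxia-induced gene, stood at 3950.3 and 3419 and then at 2920.2 and 2406 (limma adjusted p = 0.130), while the glycolytic PGK1 lay between 4071 and 4352. Heat shock proteins had a median of 0.17 over 11 members, none past limma (3 higher and 1 lower at an unadjusted p under 0.05). HSPA1A, the inducible HSP70, stood at 90.0 and 96.3 and then at 151.0 and 154.4 (limma adjusted p = 0.0819), and it is near-identical to HSPA1B, which stood at 618.7 and 568.7 and then at 825.3 and 947.4.

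The 8 h and 24 h arrays give the later levels on the same probes, with no test. Of the 36 risers 21 had their highest treated level at 8 h in both lines, 8 at 24 h in both and 1 at 4 h in both. That 1 was REC8, with 289.0 and 321.3 at 4 h, 205.5 and 255.6 at 8 h and 191.6 and 141.7 at 24 h. Of the 92 genes at least 2-fold higher in both lines, chosen for high values at 4 h, 22 were highest at 4 h in both. IFIT3 continued to 5130.1 and 7361 at 8 h and stood at 3108 and 3415 at 24 h. IFI27 was among those that went on climbing, from 829.8 and 1495 at 4 h to 2866 and 4188 at 8 h and 9107 and 10127 at 24 h. IRF9 stood at 1736, 1889 and 1878 at the 3 treated times in wild type, and was highest at 4 h in T387A, with 1960.4, 1869 and 1429.

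**Figure D5:**
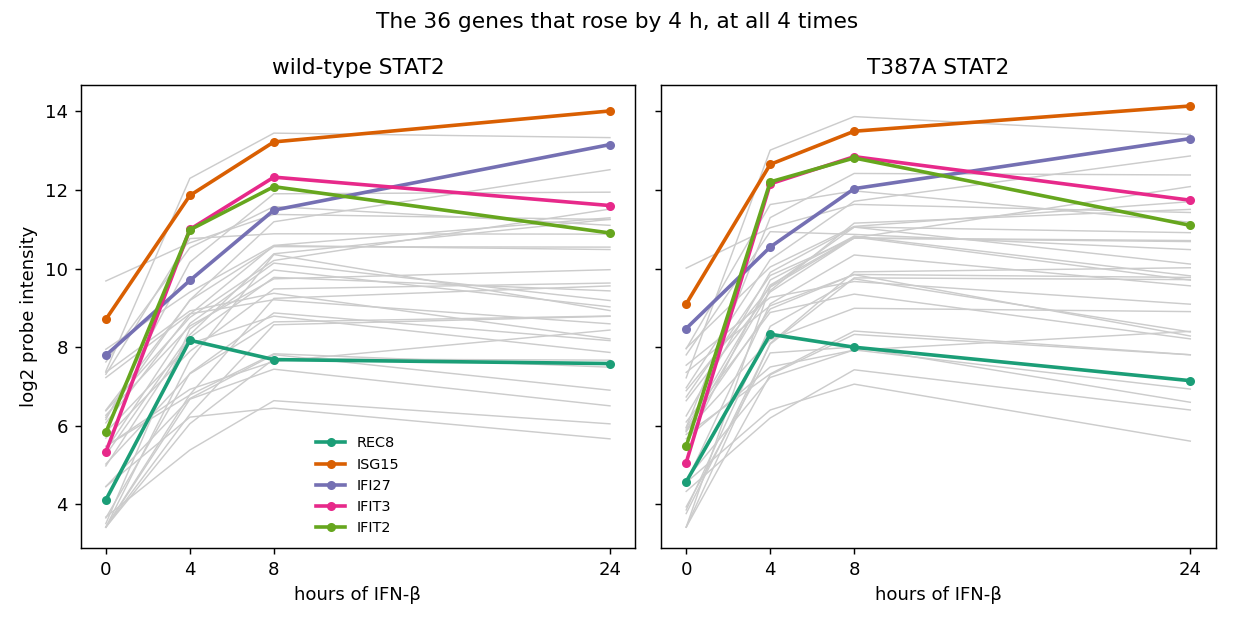
Log2 probe intensity of the 36 genes that rose by 4 h at 0, 4, 8 and 24 h of IFN-β, in wild type (left) and T387A (right), with 1 grey line per gene and REC8, ISG15, IFI27, IFIT3 and IFIT2 in colour. REC8 is highest at 4 h in both lines, IFIT3 and IFIT2 at 8 h, and ISG15 and IFI27 at 24 h.

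The fallers were chosen for low values on the 4 h arrays, which favours a lowest treated level at that time, so the later levels are given as a description. Of the 11 genes 8 had their lowest treated level at 4 h in both lines, as did 25 of the 41 genes at least 2-fold lower in both. PTGES, at 77.0 and 78.0 at 4 h, stood at 93.0 and 93.3 at 8 h and at 212.4 and 191.9 at 24 h. DDIT4 went from 238.6 and 271.0 to 406.1 and 569.2 and then to 477.6 and 708.1, next to its untreated levels of 524.4 and 740.3. FBXO32 stood at 199.1 and 252.2 at 24 h against 222.1 and 242.3 untreated, and JUP at 185.8 and 109.8 against 276.4 and 229.0.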

How the data were processed

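Total RNA of 8 cultures was labelled with biotin and hybridised to Illumina bead arrays, per the labels' protocols. The authors deposited linear probe intensity values, made with GenomeStudio per the submitters' processing notes. Its version and settings were not given in the sources used here. These deposited intensities were background-subtracted (28.6% at or below 0) and equalised between arrays (78.6% of ranks identical on all 8), so no further normalization was applied.

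Of 47315 probes 30111 had 1 gene symbol. The probe with the highest mean over 8 arrays stood for each of 20045 genes. Values were floored at 10.7 and log2 was taken. Limma 3.58.1 (R 4.3.3, lmFit and eBayes) fitted time as 4 levels plus line to 8 arrays, with Benjamini-Hochberg adjustment over 13656 genes. The line term pairs the arrays. The fit was also run on simulated data with equal changes in both lines and no difference between the lines. The real changes differ between the lines, so that run is no check of the calls. Folds against arrays at the floor are given as at least N-fold.

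The members, gene lists and tests were chosen with earlier results of these data known. The text names the 20 largest rises and, of up to 15 allowed, the 11 falls past limma, the 10 largest changes each way among genes at least 2-fold changed in both lines with an array above 100, up to 8 members of each list, and single genes such as USP18 and HLA-B. SHFL, RBM43, RND3, RNF4BP, ACSS2 and PRSS1 were named after their values were seen. Alternatives changed the floor, filter, probe, prior, scaling, fit and fold threshold, or left out single arrays.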

Additional observations from a re-analysis of the deposited data

Results flagged for a closer look

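HLA-B, a class I heavy chain, was marked because its changes had opposite signs in the lines: -0.11 on the log2 scale in wild type and 0.61 in T387A. Its levels were 194.1 and 180.4 in wild type and 168.3 and 256.2 in T387A, at 0 h and 4 h. The difference between the lines was not tested, since each line and time had 1 array.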

How the results depend on the processing

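The counts by limma depend on the spread that 3 residual degrees of freedom estimate. Higher and lower genes numbered 36 and 11 as reported, 33 and 10 after cyclic loess, 36 and 11 after 75th percentile scaling, and 38 and 12 with genes above the floor on any of the 4 arrays. The deposited arrays were already equalised, so 75th percentile scaling could hardly change a value and its equal counts are no check. They numbered 0 and 0 on the 4 arrays of the comparison alone (2254 genes at an unadjusted p under 0.05), 10 and 5 without the line term, 171 and 179 when the prior was trended and robust, 148 and 144 with the floor doubled, 147 and 112 with an offset of 16 in place of a floor, 268 and 351 with the floor at 100, 59 and 26 for genes above the floor on 4 arrays, and 64 and 40 with the mean of a gene's probes. The cause was not tested. Of the 47 genes, 47 were also called with the trended prior, 45 with the floor doubled, 45 with the offset, 35 with the floor at 100, 43 after cyclic loess and 14 without the line term. Leaving out any single array gave 0 to 0 higher and 0 to 0 lower genes.

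The genes at least 2-fold higher in both lines and the genes at least 2-fold lower in both lines numbered 92 and 41 as reported, 53 and 8 with the offset, 39 and 11 with the floor at 100, 293 and 305 at 1.5-fold and 31 and 0 at 4-fold. With the floor doubled they numbered 70 and 21. The falls of dim genes shrink by construction under the offset and the higher floors. The log2 change of HLA-B ran from -0.12 (limma adjusted p = 0.59, without T387A at 0 h) to 0.617 as single arrays were left out. Cyclic loess kept the sign of every list median. Scaling by the 75th percentile did too, but on arrays already equalised it could hardly do otherwise. Arrays under a level of about 50 limit what can be seen, with an SD of 0.45 for a difference of 2 arrays.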

Other observations

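Some genes outside the gene lists were at least 2-fold higher in both lines without passing limma. All genes in this section were chosen after their values were seen. SLC15A3, a lysosomal peptide transporter, lay under the floor without IFN-β and reached 55.2 in wild type and 150.8 in T387A by 4 h (limma adjusted p = 0.0640). TMEM140 and HSH2D were also at the floor untreated and reached 34.8 and 96.8, and 41.9 and 76.4. SLC25A28, a mitochondrial iron carrier, stood at 241.5 and 275.2 and then at 679.2 and 1197, and TENT5A, a poly(A) polymerase, at 297.3 and 302.1 and then at 638.4 and 1104. POU3F2, a neural transcription factor, was below the floor untreated and at 43.5 and 149.9 at 4 h.

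A few secreted or remodelling genes stood higher as well. FST, which binds activin, had 82.0 and 71.6 untreated and 272.7 and 197.7 at 4 h (limma adjusted p = 0.0640). PTGS2, the cyclooxygenase upstream of the faller PTGES, had 14.3 and 21.5 and then 44.5 and 61 (limma adjusted p = 0.0573). The collagenase MMP1 had 140.0 and 92.2 and then 288.2 and 204.9. The smooth-muscle actin ACTG2 had 23.5 and 44.4 and then 125.6 and 126.3. CGB1 and CGB5, which are near-identical chorionic gonadotropin genes, had 33.5 and 17.4 and then 104.7 and 71.1, and 20.2 and 19.3 and then 71.5 and 51.3.

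Small nucleolar RNAs were a further group. Of 137 tested, 71 were positive in both lines and 3 negative in both (3371 and 3841 of all 13656 genes, 24.7% and 28.1%), with a median log2 change of 0.32 against 0.00 for all genes tested. At least 2-fold higher in both lines were 10, against 0.674% of all genes, and 0 were at least 2-fold lower. Only 13 of the 137 had any of the 4 arrays above 100. SNORA61, above 100 on all 4 arrays, stood at 283.6 and 212.4 untreated and at 570.8 and 629.2 at 4 h (limma adjusted p = 0.0852). They are short RNAs carried in the introns of host genes, and whether the probes read the host transcripts was not tested.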
